A study of Mus musculus with 7 samples.

Results

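Most odor-detecting neurons of the nose signal through cAMP, but small sets of neurons in and beside the main olfactory epithelium use other molecules. The 10 mouse genes described here are those of the non-canonical sets, out of 54532 genes in the tables. They were chosen by name from their known roles: Gucy2d, Pde2a, Cnga3 and Car2 of guanylate cyclase D neurons, Trpc2, Gnao1 and Gnai2 of vomeronasal-type signalling, and the membrane proteins Ms4a4a, Ms4a6c and Ms4a7. All 10 were found by symbol.

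RNA was sequenced from pooled cells of mouse olfactory epithelia purified by fluorescence-activated cell sorting. OMP-GFP mice gave the mature olfactory sensory neurons, at postnatal days 2, 7 and 16 (P2, P7 and P16, 3 libraries), and intermediate progenitors came from Neurog1-GFP mice at P3, P7, P9 and P16 (4 libraries). Both lines carry a green fluorescent protein reporter, driven in one by the gene of olfactory marker protein and in the other by the gene of the proneural factor neurogenin 1, so population and mouse line cannot be told apart. Each age has 1 library per population, the ages serve as replicates, and p-values measure only how far these libraries spread, which includes age and may be partly technical. The labels used here give neither the sex of the mice nor whether libraries share animals.

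In guanylate cyclase D neurons, also called necklace neurons after the ring of glomeruli they reach in the olfactory bulb, the receptor guanylate cyclase makes cGMP. That cGMP opens a channel containing the Cnga3 subunit and is broken down by the phosphodiesterase Pde2a, while carbonic anhydrase 2 (Car2) converts carbon dioxide to bicarbonate. The same neurons carry MS4A proteins as chemoreceptors, and several Ms4a genes are also known from leukocytes. In the vomeronasal organ, a separate pheromone-detecting tissue, the receptors couple to the G protein alpha subunits Gnao1 or Gnai2 and open the cation channel Trpc2.

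Promoter sequence is shown for both cGMP pathway genes that were higher in mature neurons and have an entry, and for the Ms4a gene with the highest level. Each is the 250 bases before a RefSeq transcript start on the gene's own strand, GRCm38.p6, 5′ to 3′, in lower case with motif matches in capitals. The motifs searched on both strands were CCCNNGGG, the core of early B-cell factor sites, found in 11.8% of 32851 windows of the same length, and TAATTA, a homeodomain core, found in 4.84%. Gucy2d at chr7:98440166-98440415 (+) held neither, and nor did Cnga3 at chr1:37218955-37219204 (+). Ms4a7 at chr19:11336147-11336396 (-) held 1 TAATTA, which begins at -52 from the start. In all, 14 windows of 8 of the 10 genes were searched, since some genes have several starts, and this was the only match; the other Ms4a7 window, chr19:11334696-11334945, and the other Cnga3 window held none. A match here is only a run of letters.
Gucy2d: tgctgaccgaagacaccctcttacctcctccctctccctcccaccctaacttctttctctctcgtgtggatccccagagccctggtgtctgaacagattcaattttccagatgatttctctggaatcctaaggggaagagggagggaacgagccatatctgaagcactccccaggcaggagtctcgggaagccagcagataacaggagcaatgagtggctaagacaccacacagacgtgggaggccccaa
Cnga3: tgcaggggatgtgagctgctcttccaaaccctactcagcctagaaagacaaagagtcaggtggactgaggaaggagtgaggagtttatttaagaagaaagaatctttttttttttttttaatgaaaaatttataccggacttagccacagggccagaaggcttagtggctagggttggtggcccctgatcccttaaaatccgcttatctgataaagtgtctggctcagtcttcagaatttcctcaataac
Ms4a7: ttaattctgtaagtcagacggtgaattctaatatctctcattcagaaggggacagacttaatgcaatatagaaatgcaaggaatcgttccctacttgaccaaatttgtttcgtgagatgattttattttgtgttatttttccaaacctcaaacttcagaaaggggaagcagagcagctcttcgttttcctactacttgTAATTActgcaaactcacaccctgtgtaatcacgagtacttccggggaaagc

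The libraries held between 24203965 and 25930727 counts on genes, which limits precision little for Gnao1 and much for the Ms4a genes. Neurog1, the gene that names the progenitor line, had 0.84 to 1.85 TPM (a level corrected for the length of the transcript, whose sum is equal in every library) in mature neurons and 292 to 698 TPM in progenitors. The proliferation gene Mki67 had 2.70 to 5.12 TPM in mature neurons and 22.0 to 32.9 TPM in progenitors. Omp, which marks mature neurons and names the other line, had 1066 to 1630 TPM in mature neurons and 1323 to 2371 TPM in progenitors, a difference that did not pass the test (log2 fold -0.41 ± 0.24 SE, adjusted p = 0.179 by edgeR's quasi-likelihood test). In bulk samples such as these, fewer cells of a type and less RNA per cell cannot be told apart.

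Across all genes, edgeR called 10565 of 17975 tested genes between the populations at an adjusted p under 0.05, which is 58.8% (63.5% at an unadjusted p under 0.05), with 5180 higher (28.8%) and 5385 lower (30.0%) in mature neurons. With limma on log2(TPM + 0.1) and no filter on low values, 3856 were higher and 6490 lower. The median log2 fold of all tested genes was 0.01. Of the 10 genes, 6 passed the filter on low counts and 4 did not (Pde2a, Trpc2, Ms4a4a and Ms4a6c). Gucy2d, Cnga3 and Car2 were called higher in mature neurons, Gnai2 was called lower, and Gnao1 and Ms4a7 were not called. Cnga3 and Ms4a7 passed the filter largely through the mature libraries in which they were higher, so the 4 called of 6 is given as a description only.

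**Figure D1:**
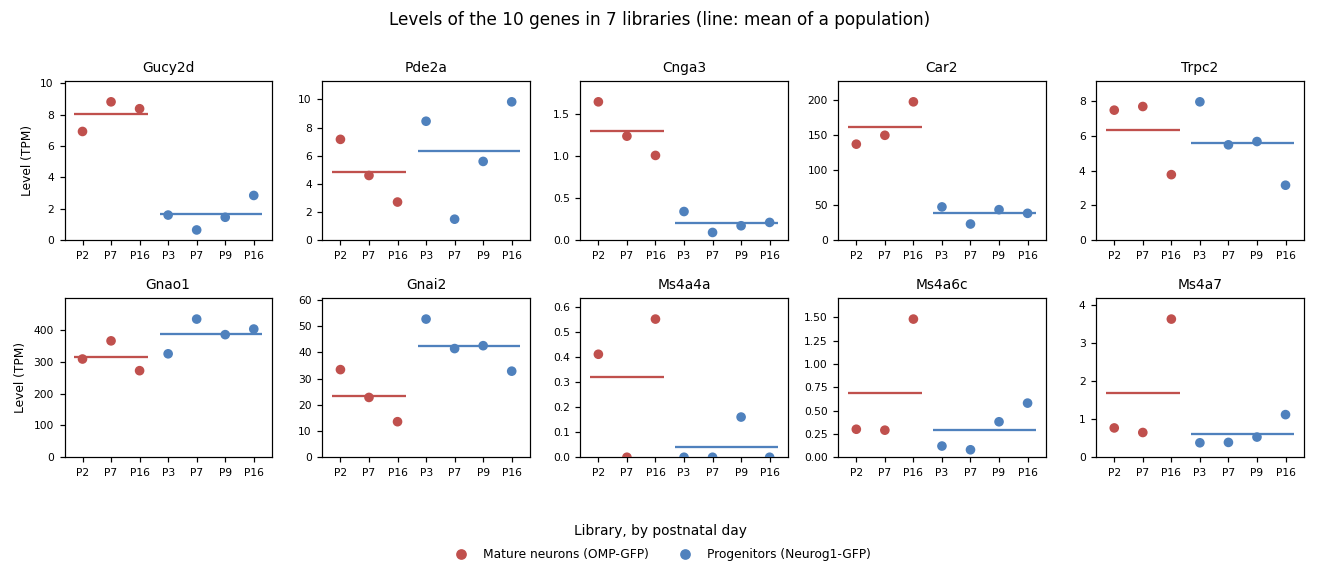
Level in TPM (vertical axis, starting at 0) of each of the 10 genes in the 3 mature neuron libraries (red) and the 4 progenitor libraries (blue), by postnatal day, with a line at each population's mean. Gucy2d, Cnga3 and Car2 sit higher in every mature library, while the 3 Ms4a genes have their highest value in the P16 mature library.

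Of the 4 guanylate cyclase D pathway genes, Gucy2d, Cnga3 and Car2 were higher in mature neurons, Gucy2d and Cnga3 at low levels, and Pde2a was not. Gucy2d (chromosome 7, 98440416 to 98477479, plus strand), the cyclase that names these neurons, had 6.92, 8.81 and 8.37 TPM in the P2, P7 and P16 mature neuron libraries, against 1.59, 0.64, 1.45 and 2.84 TPM in the P3, P7, P9 and P16 progenitor libraries. Every mature library was above every progenitor library, as in 22.8% of tested genes, while 59.1% had no overlap in either direction. The means were 8.03 ± 0.989 TPM in mature neurons (SD, n = 3) and 1.63 ± 0.909 TPM in progenitors (SD, n = 4). By edgeR the log2 fold was 2.95 ± 0.31 SE (7.74-fold, adjusted p = 9.7e-05), resting on 291 to 385 reads in each mature library and 25 to 70 in each progenitor library. The fold was smaller on the TPM scale, 1.84 ± 0.27 SE on log2(TPM + 1) (limma, adjusted p = 0.000637).

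Cnga3 (chromosome 1, 37214434 to 37263384, plus strand), a channel subunit that cone photoreceptors use as well, had 1.65, 1.24 and 1.01 TPM in mature neurons, against 0.34, 0.09, 0.17 and 0.21 TPM in progenitors, in the same order of ages. The populations did not overlap. Mature neurons averaged 1.30 ± 0.324 TPM (SD, n = 3) and progenitors 0.203 ± 0.104 TPM (SD, n = 4), with a log2 fold of 2.26 ± 0.40 SE by edgeR (4.78-fold, adjusted p = 0.00157). The reads behind it were few, 41 to 48 per mature library and 5 to 20 per progenitor library. Cnga3 passed the count filter largely through the mature libraries, so its call is a description. For scale, Cnga2, the channel subunit of canonical neurons, had 1065 to 1529 TPM in mature neurons and 426 to 556 TPM in progenitors.

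Car2 (chromosome 3, 14886273 to 14900770, plus strand) was far more abundant: 136.5, 149.2 and 196.8 TPM in mature neurons, against 47.1, 22.8, 43.2 and 38.0 TPM in progenitors. Its lowest mature library was above its highest progenitor library. The averages were 160.9 ± 31.8 TPM in mature neurons (SD, n = 3) and 37.8 ± 10.7 TPM in progenitors (SD, n = 4), with a log2 fold of 2.21 ± 0.25 SE by edgeR (4.63-fold, adjusted p = 0.000151). Red cells also contain Car2, and the 7 erythroid markers in the tables summed to 370 to 3036 TPM in mature neurons and 193 to 1364 TPM in progenitors. Of 6 erythroid markers tested, 1 was called, Hba-a2 (log2 fold 2.35 ± 0.80 SE by edgeR), beside 28.8% higher and 30.0% lower among all tested genes. The part of red cells in the Car2 level was not tested. Over the fits that each left out 1 library, the log2 fold of Car2 ran from 2.01 to 2.35 (edgeR adjusted p of 0.00017 to 0.000786).

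Ratios between these genes were less distinct. The ratio of Car2 to Gucy2d TPM was 20.1 ± 3.30 in mature neurons (SD, n = 3) and 27.1 ± 9.55 in progenitors (SD, n = 4), and its ranges overlapped (exact permutation p = 0.314, two-sided). Gucy2d TPM was 0.979 to 1.41% of Adcy3 TPM, the adenylyl cyclase of canonical neurons, in mature neurons and 0.593 to 1.84% in progenitors.

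Pde2a (chromosome 7, 101421691 to 101512827, plus strand), which cGMP itself activates, could not be read alone. Of its 6149 exon bases, 3955 (64.3%) are shared with Gm45837 on the same strand in GENCODE M21, and the count table sets ambiguous reads apart from the genes. It had 1 to 9 counts per mature library and 4 or 5 per progenitor library, so the TPM table carries what level it has. There it stood at 7.16, 4.59 and 2.70 TPM in mature neurons and 8.45, 1.48, 5.59 and 9.83 TPM in progenitors, with overlapping ranges and an exact permutation p of 0.6 (two-sided). Adding Gm45837 gave 9.82, 10.25 and 6.44 TPM in mature neurons and 14.3, 13.4, 15.2 and 14.9 TPM in progenitors. The sum no longer overlapped, as in 59.1% of tested genes in either direction. It was 5.61 TPM lower in mature neurons, with a two-sided exact permutation p of 0.0286, the smallest that 35 splits can give. A limma fit of the summed levels over all genes gave a log2 fold of -0.67 ± 0.16 SE (adjusted p = 0.00648). Beside it, 57.6% of 16867 genes were called in that fit, and 34.8% were called lower. The share of the sum assigned to Pde2a varied from 11.03% to 72.9% of TPM over the libraries. The sum was chosen after seeing the data. Endothelial marker levels, given because Pde2a is known in vessels too, summed to 9.33 to 12.2 TPM in mature neurons and 11.1 to 13.2 TPM in progenitors. By edgeR, 1 of 5 tested was higher (Kdr) and 1 lower (Tek), beside 28.8% higher and 30.0% lower among all genes tested by edgeR. The part of endothelial cells in the Pde2a level was not tested.

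Trpc2 (chromosome 7, 102083116 to 102096396, plus strand) was in the same position. All 2874 of its exon bases lie in same-strand genes, 97.5% of them in Xntrpc, a gene that reads through it, and it had 0 counts in every library. Its TPM was 7.49, 7.70 and 3.77 in mature neurons and 7.97, 5.49, 5.68 and 3.16 in progenitors. These ranges overlapped and P16 was lowest in both populations (exact permutation p = 0.6, two-sided). Trpc2 with Xntrpc, a sum also chosen after seeing the data, came to 17.3, 15.03 and 7.85 TPM in mature neurons and 18.3, 13.3, 12.4 and 9.72 TPM in progenitors, a difference of -0.0208 TPM (p = 1.0 by the same exact test, smallest possible 0.0286). The log2 slope per doubling of age of that sum was -0.34 ± 0.06 SE and did not pass (limma, adjusted p = 0.0942).

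**Figure D2:**
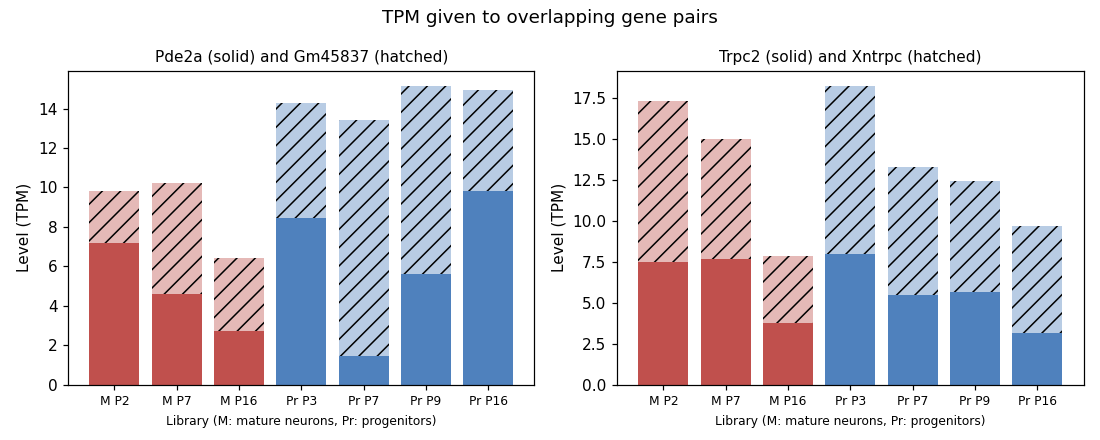
Level in TPM (vertical axis, starting at 0) given to Pde2a and Gm45837 (left) and to Trpc2 and Xntrpc (right), stacked, in each library of mature neurons (M, red) and progenitors (Pr, blue). The Pde2a with Gm45837 sum is 6.44 to 10.25 TPM in mature neurons and 13.4 to 15.2 TPM in progenitors, while the division within the sum moves widely between libraries.

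Beside Trpc2, the vomeronasal receptor families were uneven in time. The 208 Vmn1r genes summed to 58.8, 3.04 and 1.19 TPM in the P2, P7 and P16 mature neuron libraries, against 15.1, 13.8, 15.7 and 9.21 TPM in progenitors. The 122 Vmn2r genes summed to 29.8, 7.30 and 1.72 TPM in mature neurons, against 11.4, 9.55, 9.36 and 8.11 TPM in progenitors. The P2 mature library was highest and the P16 mature library lowest in both families. Several other vomeronasal markers were also highest in the P2 mature library, and others were not. The 17 listed markers summed to 41.9 to 115 TPM in mature neurons and 396 to 527 TPM in progenitors. Most of that sum was Gng8, at 36.1 to 90.2 TPM in mature neurons and 380 to 510 TPM in progenitors. Calr4 was also lower in every mature library than in any progenitor library. H2-M10.2 had 5.15, 1.89 and 0.82 TPM in mature neurons, against 0.84, 0.24, 0.75 and 0.23 TPM in progenitors. Fpr-rs3 had 15 reads in the P2 mature library and at most 1 in any other. Tfap2e, a transcription factor of vomeronasal neurons, had 9 reads there and at most 2 in any other library, and the receptor gene Fpr3 had 0 counts in all 7. The part of such cells in the levels of Trpc2, Gnao1 and Gnai2 was not tested.

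Gnao1 (chromosome 8, 93809966 to 93969388, plus strand), the Go alpha subunit that neurons of many kinds use, was the most abundant of the 10 genes. It had 308.2, 365.2 and 271.6 TPM in mature neurons, against 324.6, 433.5, 384.7 and 402.3 TPM in progenitors. The ranges overlapped and the log2 fold of -0.15 ± 0.10 SE did not pass (edgeR, adjusted p = 0.251). The ratio of Gnao1 to Gnal, the alpha subunit of canonical odor transduction, was 0.213, 0.226 and 0.147 in mature neurons, against 0.809, 0.898, 0.635 and 0.617 in progenitors, with no overlap between populations. Gnal itself was higher in mature neurons (log2 fold 1.74 ± 0.20 SE, edgeR adjusted p = 0.000159).

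Gnai2 (chromosome 9, 107614125 to 107635367, minus strand), an inhibitory alpha subunit, was lower in mature neurons. It had 33.4, 22.8 and 13.6 TPM in the P2, P7 and P16 mature neuron libraries, against 52.7, 41.4, 42.5 and 32.8 TPM in progenitors at P3, P7, P9 and P16. The P2 mature library passed the P16 progenitor library, and each population was lowest at P16. The log2 fold was -0.82 ± 0.26 SE by edgeR (1.76-fold lower, adjusted p = 0.0251). The call was lost without the P7 mature library (-0.81, adjusted p = 0.0695) and without the P3 progenitor library (-0.68, adjusted p = 0.0614), and without the P16 mature library the fold was -0.57 (adjusted p = 0.036).

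The other alpha subunits were compared as a list of 14. Of 10 tested, 5 were lower and 1, Gnal, was higher in mature neurons, with a median log2 fold of -0.47 beside 0.01 for all tested genes. The number called is near the 58.8% called among all tested genes, of which 30.0% were lower, so it is no result about alpha subunits. Gna13 (-0.82 ± 0.08 SE), Gnas (-2.20 ± 0.22 SE), the stimulatory alpha subunit, and Gnai3 (-0.83 ± 0.09 SE), a close relative of Gnai2, had the smallest p among those called. All 3 had adjusted p under 0.05 by edgeR. The ranges of Gnai2 in mature neurons (13.6 to 33.4 TPM) and of Gnai3 (16.2 to 21.2 TPM) overlapped.

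**Figure D3:**
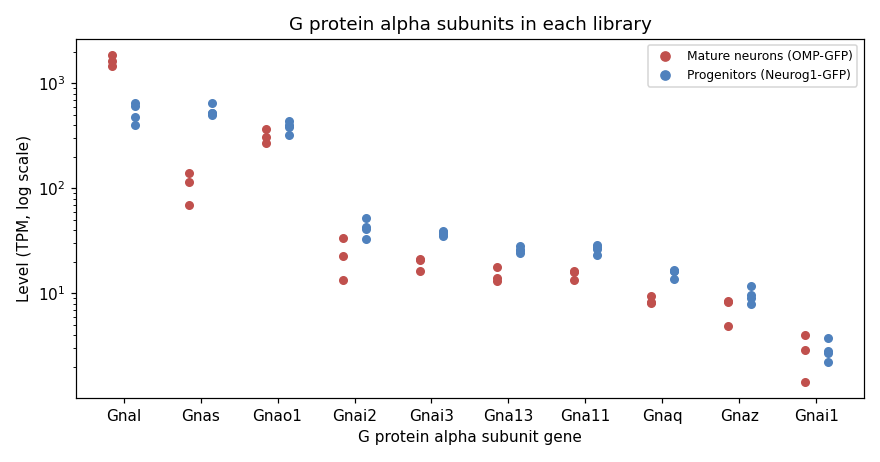
Level in TPM (vertical axis, log scale) of 10 G protein alpha subunit genes, with 1 point for each of the 3 mature neuron libraries (red) and 4 progenitor libraries (blue). Gnao1 (272 to 365 TPM in mature neurons and 325 to 433 TPM in progenitors) overlaps between the populations, while Gnal is higher and Gnas lower in all mature libraries.

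The Ms4a genes were near the floor of detection. Ms4a7 (chromosome 19, 11321039 to 11336146, minus strand) had 0.77, 0.65 and 3.63 TPM in the P2, P7 and P16 mature neuron libraries, against 0.38, 0.39, 0.53 and 1.12 TPM in progenitors at P3, P7, P9 and P16. The P16 library was the highest in each population, and the ranges overlapped. Its log2 fold of 1.94 ± 0.79 SE by edgeR (adjusted p = 0.063) rested on 11, 11 and 65 reads in mature neurons, against 4, 5, 6 and 19 in progenitors. Without the P16 mature library the log2 fold was 0.54 (adjusted p = 0.482). Other settings did pass the threshold: with age as a covariate it was 2.0 (adjusted p = 0.00578), and DESeq2 gave 1.97 (adjusted p = 0.0461).

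Ms4a6c (chromosome 19, 11469366 to 11482192, plus strand) had 0.30, 0.29 and 1.48 TPM in mature neurons, against 0.12, 0.08, 0.38 and 0.58 TPM in progenitors. P16 was again highest in both populations. The difference of 0.40 TPM did not pass (exact permutation p = 0.343, two-sided), and 53.1% of its exon bases lie opposite BE692007, so its reads depend on a strand setting not given in the sources used here. Without the P16 mature library the difference was 0.005 TPM.

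Ms4a4a (chromosome 19, 11375523 to 11392790, plus strand) had 0.41, 0 and 0.55 TPM in mature neurons, against 0, 0, 0.16 and 0 TPM in progenitors. At 0 to 8 reads per library it was seen in 2 of 3 mature libraries, and the test found no difference beyond the spread (0.28 TPM, exact permutation p = 0.257, two-sided). A library with 0 reads allows up to 3, which is 0.12 CPM (counts scaled to library size) in the P7 mature library, counting error only.

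The Ms4a levels stood beside leukocyte markers, since both families of transcripts occur in macrophages. The 19 markers summed to 70.2, 48.8 and 193 TPM in mature neurons, against 41.6, 27.4, 26.4 and 52.6 TPM in progenitors, with P16 highest in both populations. Of 18 tested, 14 were called higher in mature neurons and 0 lower, beside 28.8% higher and 30.0% lower among all tested genes, with a median log2 fold of 1.86 beside 0.01. Some of them passed the count filter largely through the mature libraries, such as Ccl4 with 14, 16 and 33 reads in mature neurons, against 3, 6, 4 and 9 in progenitors. Among them Mrc1 (1.77 ± 0.26 SE), Cx3cr1 (1.82 ± 0.38 SE) and Ccl3 (1.98 ± 0.43 SE) had the smallest p (edgeR). The part of these cells in the Ms4a levels was not tested.

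The other genes of the Ms4a and Tmem176 family were compared as a list. Of 18 listed, 5 were tested, 1 was higher and 3 were lower in mature neurons, with a median log2 fold of -0.90, beside 28.8% higher and 30.0% lower among all tested genes. Ms4a6d was higher, at 1.09, 0.81 and 0.87 TPM in mature neurons, against 0.23, 0.12, 0.05 and 0.09 TPM in progenitors, with no overlap (log2 fold 3.05 ± 0.46 SE, edgeR adjusted p = 0.000659). With 15 to 19 reads in each mature library and 1 to 5 in each progenitor library, it passed the count filter only through the mature libraries, so its call is a description. Tmem176b (-1.10 ± 0.28 SE) and Ms4a1 (-3.06 ± 0.80 SE) were lower, and Ms4a8a, Ms4a10 and Ms4a12 had 0 counts in every library. Ms4a1 had 3, 0 and 15 reads in mature neurons, against 27, 80, 64 and 58 in progenitors. It passed the count filter largely through the progenitor libraries, so its call is a description as well.

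**Figure D4:**
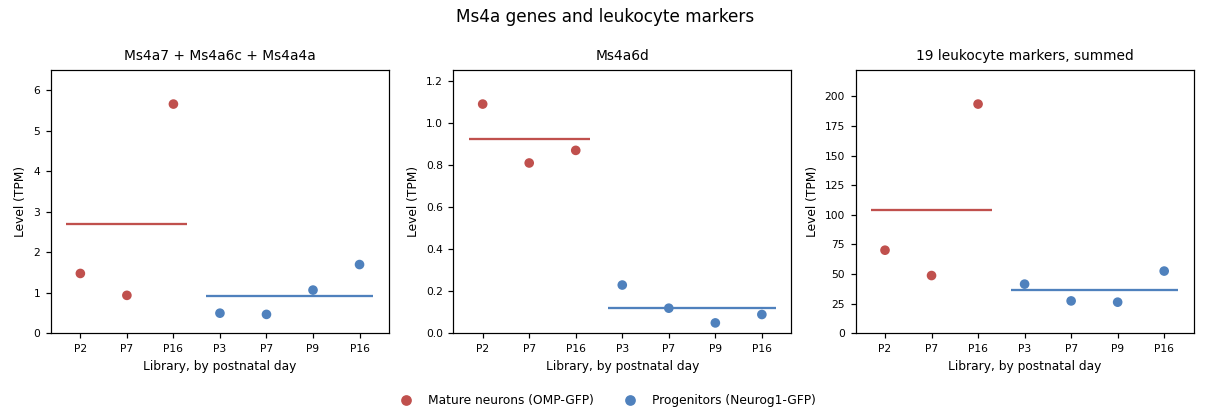
Level in TPM (vertical axes, starting at 0) of Ms4a7, Ms4a6c and Ms4a4a summed (left), Ms4a6d (middle) and 19 leukocyte markers summed (right), by library, in mature neurons (red) and progenitors (blue), with a line at each population's mean. The Ms4a sum and the marker sum both peak in the P16 mature library, and Ms4a6d lies at 0.81 to 1.09 TPM in all 3 mature libraries.

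Lists of genes beside the 10 in their pathways were less uniform. Of 38 cGMP signalling symbols, 36 were in the tables and 25 were tested, of which 9 were higher and 8 lower in mature neurons, with a median log2 fold of 0.65. Among all tested genes 28.8% were higher and 30.0% lower, so the number called, 17 of 25, is close to that background. The natriuretic peptide receptor cyclase Npr2 was lower (-3.45 ± 0.16 SE), and the phosphodiesterase genes Pde6d (1.30 ± 0.09 SE) and Pde1c (2.03 ± 0.19 SE) were higher, all by edgeR. Gucy1b2, a soluble cyclase subunit known from another small set of olfactory neurons, had 3.51, 4.28 and 2.19 TPM in mature neurons, against 5.22, 2.93, 3.41 and 1.84 TPM in progenitors, and did not pass (log2 fold 0.28 ± 0.39 SE, adjusted p = 0.568). Guca2a and Guca2b, the genes of guanylin and uroguanylin, peptides that activate guanylate cyclase D, were at or under 0.12 TPM.

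The counts that follow stand beside the same 28.8% higher and 30.0% lower among all tested genes. Among 15 carbonic anhydrases other than Car2, 7 were tested and 1 was higher and 1 lower, with a median log2 fold of -0.01. Car6, a secreted form, was higher in mature neurons (4.02 ± 0.71 SE) and Car7 lower (-0.79 ± 0.18 SE). Of 6 other Trpc channel genes, 3 were tested and Trpc1 (0.53 ± 0.09 SE) was higher. The 14 canonical transduction genes gave 12 higher and 0 lower, with a median log2 fold of 1.82, including Gng13 (1.64 ± 0.13 SE), Ano2 (2.05 ± 0.17 SE) and Slc24a4 (2.19 ± 0.20 SE). Of 17 vomeronasal markers, 5 were tested, Gng8 was lower (-2.47 ± 0.28 SE) and H2-M10.2 higher (2.58 ± 0.65 SE). H2-M10.2 had 87, 28 and 14 reads in mature neurons, against 12, 5, 11 and 4 in progenitors. It passed the count filter largely through the mature libraries, so its call is a description.

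**Figure D5:**
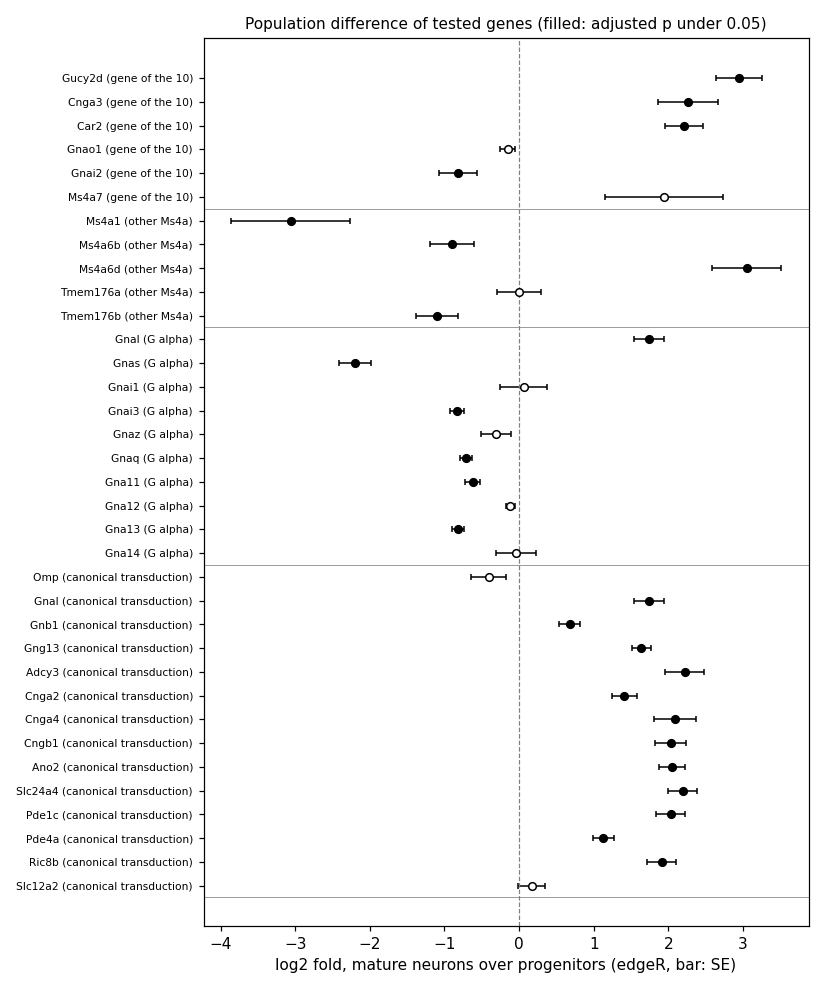
Log2 fold of mature neurons over progenitors (horizontal axis, edgeR, bars are SE) for the tested genes of the 10 and of the Ms4a, G alpha and canonical transduction lists, with filled points for an adjusted p under 0.05. Gucy2d, Cnga3 and Car2 lie at 2.21 to 2.95, beside -0.41 (Omp) to 2.22 (Adcy3) for the canonical genes, while Gnai2 lies at -0.82 and Gnao1 at -0.15.

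Age was examined as 1 slope for the 2 populations together, as the change in log2 level for each doubling of the postnatal day. EdgeR called no gene for this slope, 0.00% of those tested, with 3746 genes (20.8%) under an unadjusted p of 0.05, while DESeq2 called 1500 genes. Gnai2 had a slope of -0.33 ± 0.04 SE (edgeR adjusted p = 0.0586) and Ms4a7 one of 0.94 ± 0.22 SE (adjusted p = 0.0796), so both missed the threshold. Other settings called them. Gnai2 passed by DESeq2 (-0.32, adjusted p = 6.54e-08), with no filter on low counts (-0.33, edgeR adjusted p = 0.00783) and without the P7 mature library (-0.34, adjusted p = 0.0109), within a range of adjusted p of 6.54e-08 to 0.213 over all settings run. Ms4a7 passed with no filter (0.93, adjusted p = 0.0348) and without the P7 mature library (0.90, adjusted p = 0.0272), and its adjusted p reached 0.491 at most. Gucy2d (0.11 ± 0.13 SE), Cnga3 (-0.24 ± 0.16 SE), Car2 (0.06 ± 0.11 SE) and Gnao1 (0.02 ± 0.05 SE) had slopes smaller than 2 SE. The difference of slopes between populations was called for no gene by edgeR (0.00%, with 1075 genes or 5.98% under an unadjusted p of 0.05) and for 6 by DESeq2. Among the 6 tested genes of the 10 it ran between -0.14 for Gnao1 and 0.60 for Cnga3.

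Ranked by mean TPM in mature neurons, Gnao1, Car2 and Gnai2 each stood apart from the next gene, and Gucy2d, Trpc2, Pde2a, Ms4a7, Cnga3, Ms4a6c and Ms4a4a followed, each overlapping its neighbour. In progenitors Gnao1 stood apart, Gnai2 and Car2 overlapped each other, Pde2a and Trpc2 overlapped each other, and the remaining 5 followed below 3 TPM in every library. By these means Car2 held the place above Gnai2 in mature neurons and the place below it in progenitors. In single progenitor libraries the order varied. Car2 was below Gnai2 at P3 (47.1 against 52.7 TPM) and P7 (22.8 against 41.4 TPM). It was above Gnai2 at P9 (43.2 against 42.5 TPM) and P16 (38.0 against 32.8 TPM).

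The tested genes with the most similar profiles over the 7 libraries were found from the root mean square difference of log2(CPM + 0.1), each centred on its own mean. Gucy2d was nearest to Ccdc33 (0.283), Umodl1 (0.314) and Dhrs3 (0.326), and Cnga3 to Ms4a6d (0.225), Crip3 (0.24) and Srxn1 (0.243). Car2 was nearest to Adcy3 (0.121), Gpat3 (0.125) and Fam178b (0.137). Gnao1 was nearest to Nae1 (0.0511), Stk39 (0.0517) and Gsk3b (0.0529), and Gnai2 to Card10 (0.0769), Anln (0.0896) and Pgghg (0.0901). Ms4a7 was nearest to Lilrb4a (0.177), Mpeg1 (0.212) and Dock2 (0.219). These distances describe 7 libraries that share their depth and populations, and no p is given.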

How the data were processed

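RNA was measured by sequencing in 7 libraries, 3 of mature neurons and 4 of progenitors, grouped by the labels. TRIzol extraction and TruSeq Stranded mRNA libraries are stated per the labels' protocols. STAR 2.6.1c, bcl2fastq 2.18, RSEM and the build mm10 stand, without roles, in the submitters' processing notes. The authors deposited whole-number read counts per gene and, in another table, TPM values for the same 54532 genes. The sources used here do not give the annotation release or the strand setting. The count table sets ambiguous reads apart from the genes, 0.988% to 1.14% of each library's total count. Neither the rule for that nor how the TPM values divide overlapping genes is given. GENCODE M21 matched 54495 of the 54532 gene IDs and was used for overlaps and coordinates (GRCm38). Entries naming no gene held 23.53% to 27.22% of each library's total count and were left out.

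The 10 genes, the other lists and the tests were chosen with earlier results of these data known. The named genes are the 10, up to 3 called genes with the smallest p from each list, and genes of similar profile. The latter are, for each of the 10 that passed the filter, the 3 genes of most similar profile after the exclusions given above. Populations were compared with edgeR 4.0.16 (R 4.3.3) quasi-likelihood tests on the counts, with TMM scaling, filterByExpr and Benjamini-Hochberg adjustment over all genes at 0.05, and log2 folds are mature neuron over progenitor. Age entered as log2 of postnatal day. Genes under the filter were compared by exact permutation of TPM over 35 splits. The scripts were tested on simulated counts. Alternatives were DESeq2 1.42.0, RLE factors, no filter, limma 3.58.1 on log2(TPM + 1) or log2(TPM + 0.1), an age covariate, pairing by age and leaving out each library. Motif matches used the RefSeq promoter table, in which 8 of the 10 genes matched. Fits leave 5, 4 and 3 residual degrees of freedom for population, slope and interaction.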

Additional observations from a re-analysis of the deposited data

Results flagged for a closer look

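A library stands far from the others of its group in 2 cases, among 18 sets of values looked at, each of 4 progenitor libraries. Ms4a4a was at 0.16 TPM in the P9 progenitor library and 0 TPM in the other 3, on 2 reads. Ms4a7 was at 0.714 CPM in the P16 progenitor library, with 0.148 to 0.222 CPM in the other 3. In TPM, Ms4a7 (0.38, 0.39, 0.53 and 1.12) was not flagged, and the 18 sets hold some genes in both units. For normally distributed values, chance alone gives about 1 in 20 groups such a gap. Whether these levels have that shape was not tested, so the rate is only a guide. That rate does not apply to Ms4a4a, since any gene at 0 in all but 1 library is flagged. Mature neurons, with 3 libraries, were not looked at in this way.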

How the results depend on the processing

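The calls of Gucy2d, Cnga3 and Car2 kept direction and threshold under each alternative that gave them a value (Cnga3, under the TPM minimum, had none in the limma fits with that filter), with log2 folds of 1.84 to 3.26, 2.04 to 2.94 and 2.01 to 2.69. That of Cnga3 remains a description, given how it passed the count filter. Leaving out 1 library gave 9365 to 10772 genes called between populations. The lowest was of 17720 tested (without the P7 progenitor library) and the highest of 18382 (without the P16 mature library). The age slope gave 0 to 986 genes (986 of 18436 tested, without the P7 mature library) and the difference of slopes 0 to 2. Of the 10 genes, 6 or 7 were tested in each of those fits. Among them 3 to 5 were called between populations and 0 to 3 for age, as a description only. DESeq2 called 1500 of 17975 tested genes for age and 6 for the difference of slopes. With no filter, 770 of 32706 were called for age. Of the 10 genes, DESeq2 called 1 of 6 tested for age and no filter 2 of 9. The cause was not tested.

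With 1 library left out, log2 folds ran from -1.11 to -0.57 for Gnai2 and 0.54 to 2.68 for Ms4a7, and Trpc2 differences from -0.06 to 2.02 TPM. Age slopes of Car2 (-0.06 to 0.22) and Gnao1 (-0.04 to 0.09) changed sign. So did slope differences of Gucy2d (-0.95 to 0.62), Cnga3 (-0.24 to 0.87), Car2 (-0.27 to 0.52), Gnao1 (-0.31 to 0.01), Gnai2 (-0.28 to 0.03) and Ms4a7 (-1.04 to 1.09). In limma on log2(TPM + 1) and log2(TPM + 0.1) these were -0.13 and -0.22 for Gucy2d and 0.18 and 0.1 for Ms4a7, and -0.0 for Cnga3 with no filter. Summed with the overlapping gene, the TPM difference was -5.61 for Pde2a (exact p = 0.0286) and -0.0208 for Trpc2.

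Age as a replicate block, on the P7 and P16 libraries only, called 9331 of 17908 tested genes and moved Ms4a7 to 1.75 (edgeR adjusted p = 0.0182). Ms4a6c, which the count filter kept out of the main fit, had a log2 fold of 1.44 (adjusted p = 0.0489). It rested on 6 and 36 reads in mature neurons, against 3 and 14 in progenitors. With 2 shared ages the pairing itself could not be checked. Counts below about 20 reads limit Cnga3 and the Ms4a genes.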

Other observations

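Of 7 tested microvillous cell markers, 1 was higher and 2 were lower in mature neurons, beside 28.8% higher and 30.0% lower among all tested genes (edgeR). Coch had 8.75 to 31.5 TPM in mature neurons and 53.7 to 93.0 TPM in progenitors (log2 fold -1.86 ± 0.45 SE). Pou2f3 was higher in mature neurons (1.13 ± 0.24 SE) and Itpr3 lower (-0.71 ± 0.21 SE).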
